A study of Mus musculus with 2 samples.

Results

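Heat shock chaperones were followed in lymph node dendritic cells (DCs) as a set of 10 named genes, out of the 18049 genes listed for each cell. The set was Hspa1a, Hspa1b, Hspa8, Hspa5, Hsp90aa1, Hsp90ab1, Hsph1, Dnajb1, Dnaja1 and Hspe1, and all 10 were listed in both libraries. CITEseq, which reads mRNA and barcoded surface antibodies from the same cell, was performed on live MHCIIhi CD11c+ B220- cells of B6 mice. One library came from naive mice (3471 cells) and 1 library from mice that had received OVA with papain, a protease allergen, in both rear footpads 1 day earlier (7596 cells). The sources differ on the nodes: the labels name popliteal nodes for both libraries, while the study's methods give pooled skin-draining nodes for the naive library and popliteal nodes for the papain library. If the methods hold, node site and immunization cannot be told apart. Both libraries were of B6 mice, both went through warm collagenase D digestion before the sort, and the number of mice behind a library is not given in the sources used here. With 1 library per condition there is no replicate error, and every interval below covers counting error only.

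Chaperones hold unfolded or client proteins and release them in cycles driven by ATP. The cytosolic HSP70 proteins bind short exposed stretches of a client, J-domain proteins (the DNAJ family) bring clients and stimulate the ATPase, HSPH1 exchanges the nucleotide, and HSP90 takes over late folding steps of kinases and receptors. Some of these genes are constitutive and others are switched on within minutes by heat shock factor 1 when proteins misfold, while the endoplasmic reticulum has a separate system in which HSPA5 (BiP) is the HSP70.

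The authors had sorted the cells by their antibody tags into Langerhans cells (LCs), cDC1s and CD301b-low, CD301b-intermediate and CD301b-high cDC2s. These 5 classes held 3042 naive and 7306 papain cells, and 429 and 290 cells had no class. Levels below are CPM: the unique transcript counts (UMIs) that a gene had in all cells of a class or cluster together, per 1000000 UMIs of those cells. Median depth was 13764 UMIs per naive cell and 14738 per papain cell, and 2 cell barcodes occurred in both libraries. By class it ran from 10767 (naive LCs) to 18290 (papain LCs). Some markers of the classes were counted in them. Naive LCs had Epcam at 102 CPM and Cd207 at 45.7 CPM, and naive cDC1s had Irf8 at 566 CPM. Levels of these genes in the other classes are not given here. The same holds for Batf3, Irf4 and Mgl2, the gene of CD301b, in any class. Naive CD301b-high cDC2s had Sirpa at 113.5 CPM against 10.7 CPM in cDC1s. The cDC1 markers Xcr1 and Clec9a were low even in cDC1s, at 16.85 and 5.48 CPM in the naive library. Mitochondrial transcripts took 4.3% of naive and 3.2% of papain UMIs, and 10.2% and 7.49% of classified cells held a Cd3e, Trac, Cd79a or Cd79b UMI, which are T and B cell transcripts.

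The promoters of 4 members are shown as examples of the heat shock and endoplasmic reticulum stress elements. Promoter windows taken from RefSeq (GRCm38.p6, the build of mm10) were matched for 7 of the 10 members, and those of Hspa8, Hsp90aa1 and Hsp90ab1 were not analysed here. Hspa1a and Hspa1b encode the inducible cytosolic HSP70 and lie next to each other on chromosome 17, both on the minus strand, with gene bodies at chr17:34969359-34972156 and chr17:34956429-34959238. The 250 bases before each start follow, 5' to 3', at chr17:34972157-34972406 for Hspa1a and chr17:34959239-34959488 for Hspa1b. Capitals mark 2 inverted heat shock units, GAANNTTC, whose first base lies 104 bases before the start in both.
Hspa1a: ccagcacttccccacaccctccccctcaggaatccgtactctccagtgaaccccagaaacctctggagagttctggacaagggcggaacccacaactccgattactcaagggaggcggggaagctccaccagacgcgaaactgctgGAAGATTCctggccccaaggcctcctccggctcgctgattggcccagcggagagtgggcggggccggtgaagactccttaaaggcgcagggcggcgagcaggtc
Hspa1b: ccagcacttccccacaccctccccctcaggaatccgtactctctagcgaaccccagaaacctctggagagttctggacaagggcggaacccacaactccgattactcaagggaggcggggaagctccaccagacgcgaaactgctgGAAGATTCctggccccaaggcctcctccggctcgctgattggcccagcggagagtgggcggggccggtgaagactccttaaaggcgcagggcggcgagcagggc
The windows are identical at 247 of 250 positions (98.8%), and the motif GAANNTTC, its own reverse complement, is held by 6.69% of all 32851 windows of this length. The next sequence is that of Hspa5, on the plus strand at chr2:34771840-34772089. Capitals mark the endoplasmic reticulum stress element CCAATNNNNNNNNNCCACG, which begins 65 bases before the start and overlaps 1 of the 4 CCAAT boxes of the window.
Hspa5: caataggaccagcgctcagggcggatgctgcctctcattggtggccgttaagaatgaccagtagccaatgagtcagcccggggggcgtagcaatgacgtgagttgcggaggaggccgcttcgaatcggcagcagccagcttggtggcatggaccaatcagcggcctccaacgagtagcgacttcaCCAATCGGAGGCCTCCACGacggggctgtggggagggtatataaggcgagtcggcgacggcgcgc
On either strand this element is held by 0.113% of the windows. Hspe1 encodes the small co-chaperonin of the mitochondrial matrix and begins inside the first bases of its partner gene Hspd1, which is read from the other strand (gene bodies chr1:55088148-55091317 and chr1:55077833-55088243). A stretch of 30 bases at chr1:55088053-55088082, plus strand, is shown with 2 overlapping 3-unit heat shock elements (GAANNTTCNNGAA or its reverse complement TTCNNGAANNTTC) in capitals, from 89 to 72 bases before the start.
Hspe1: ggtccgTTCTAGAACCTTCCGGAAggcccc
The 3-unit element was held by 0.466% of windows and, among the 7 members with a window, by Hspe1. Of the matched members that are not shown, Dnaja1 held GAANNTTC at 124 bases before 1 of its 3 start sites. Hsph1 held the other 2-unit order, TTCNNGAA, at 33 and 54 bases before its 2 start sites, and 7.17% of all windows held it. None of the heat shock letters searched was in the 2 windows of Dnajb1, which says only that these letters are not in these windows. A match describes these letters only.

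Over all classified DCs, 9 of the 10 chaperones were lower in the papain library than in the naive library and 1, Hsp90ab1, was higher. Values over all classes also carry a difference in class make-up. The cDC1s were 19.0% of naive and 3.22% of papain classified cells, and CD301b-high cDC2s were 23.2% and 39.6%. Hspa1a and Hspa1b stood furthest down, near 2-fold. A gene was called when its ratio, with 1 CPM added to both sides, passed 1.5-fold. On this rule 2 members were lower (Hspa1a and Hspa1b) and none higher, where 7.18% of the 2731 genes of at least 50 CPM were lower and 11.2% higher. The median log2 ratio of the 10 was -0.38, against 0.12 over all tested genes. Hsph1 did not reach 50 CPM in either library and is counted with the members but not in these percentages.

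**Figure D1:**
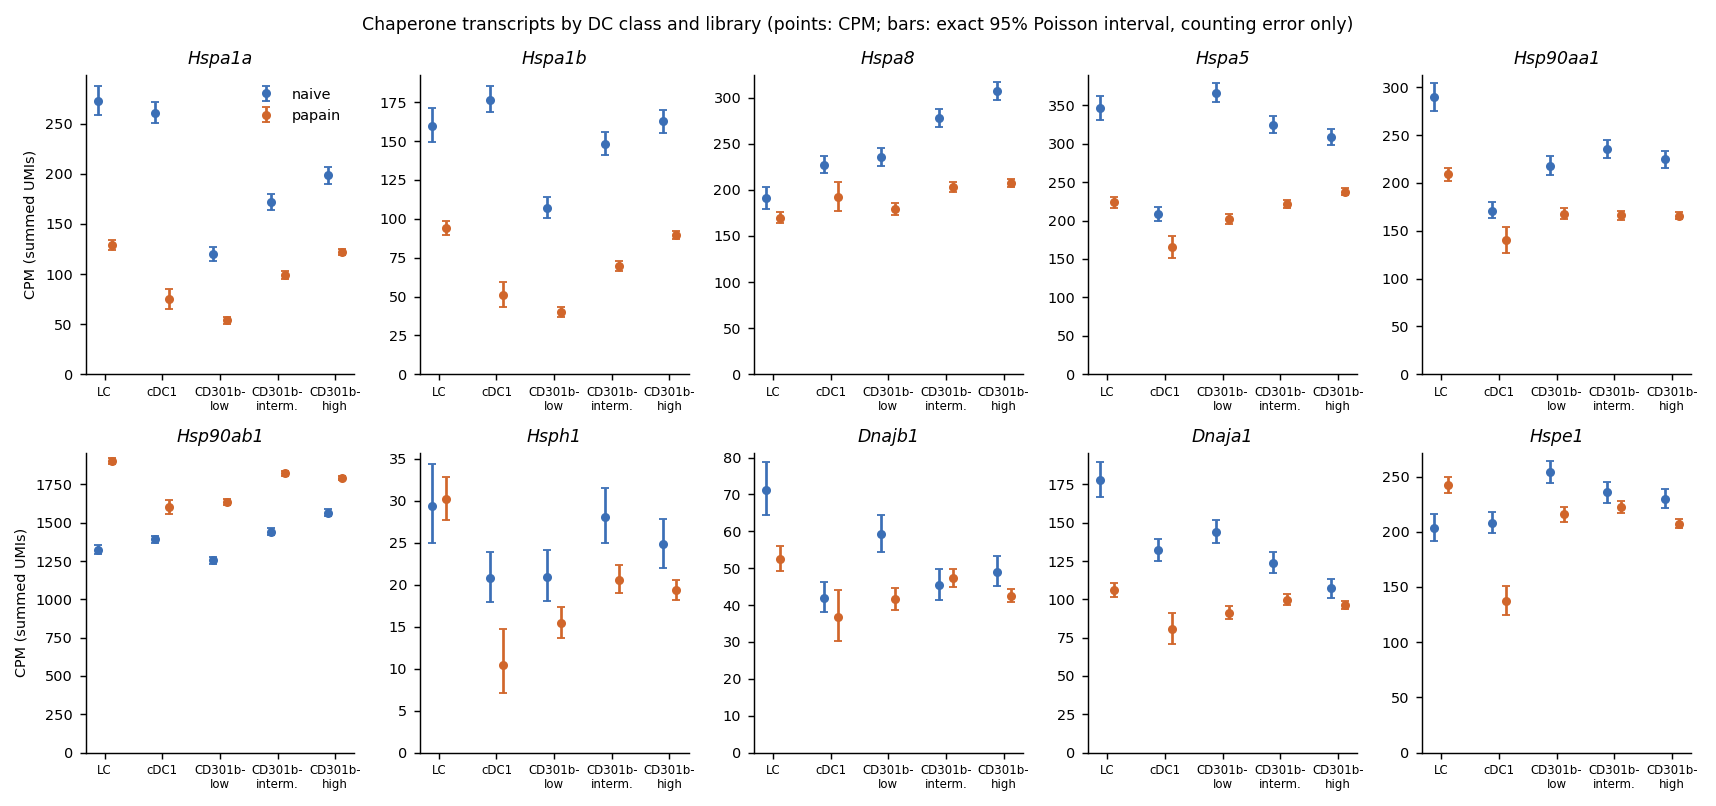
CPM of each chaperone (y axis, from 0) in the 5 antibody classes (x axis) of the naive and papain libraries, with exact 95% Poisson intervals. The papain points of Hspa1a, Hspa1b, Hspa8, Hspa5, Hsp90aa1 and Dnaja1 lie below the naive points in every class, and those of Hsp90ab1 lie above them.

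Hspa1a was at 198 CPM (95% interval 194 to 202) in naive and 106 CPM (104 to 107) in papain DCs, 1.87-fold lower (1.82 to 1.93). Hspa1b was at 151 CPM (147 to 154) in naive and 76.8 CPM (75.2 to 78.4) in papain DCs, 1.97-fold lower (1.90 to 2.03). The paralogs are near-identical and reads that fit both can be lost or split in counting, so their sum is the safer measure: 349 CPM in naive against 182 CPM in papain, 1.91-fold lower (1.87 to 1.95). Hspa1a made up more of the sum in both libraries, with 1.31 Hspa1a UMIs per Hspa1b UMI in naive and 1.38 in papain DCs.

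By class, the sum of Hspa1a and Hspa1b in naive mice was 433 CPM in LCs, 438 CPM in cDC1s, 226 CPM in CD301b-low, 320 CPM in CD301b-intermediate and 361 CPM in CD301b-high cDC2s. In papain mice it was 223, 126, 93.7, 169 and 211 CPM in the same order. Among cDC2s the level went up with CD301b in both libraries, and LCs stood first in papain mice and beside cDC1s in naive mice, where these 2 classes did not differ beyond counting error, while cDC1s went from the top in naive mice to the second lowest place in papain mice. The place of LCs differed in cells of 10000 to 20000 UMIs, where naive cDC1s (521 CPM) stood above LCs (403 CPM), and papain CD301b-high cDC2s (208 CPM) above LCs (184 CPM). The naive level exceeded the papain level 3.49-fold in cDC1s (3.14 to 3.88), 2.42-fold in CD301b-low cDC2s (2.27 to 2.58), 1.94-fold in LCs (1.85 to 2.05), 1.90-fold in CD301b-intermediate cDC2s (1.82 to 1.98) and 1.71-fold in CD301b-high cDC2s (1.65 to 1.77). The cDC1s were also the class with the most T or B cell transcripts in the naive library (16.8% of cells, 6.81% in papain). Without the cells that held such a transcript the ratio was 3.43-fold (3.08 to 3.83), and in cells of 10000 to 20000 UMIs it was 3.64-fold (3.23 to 4.11).

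These transcripts were concentrated in a small share of the cells. In naive DCs 47.3% of cells had an Hspa1a UMI and 38.6% an Hspa1b UMI, in papain DCs 40.2% and 34.2%, and 29.3% and 22.8% of cells had both. The 5% of cells with the most Hspa1a held 47.2% of its UMIs in naive and 48.1% in papain DCs, and single cells reached 109 and 64 UMIs. The same share for Hspa1b was 50.6% in naive DCs, against 16.1% for Hsp90ab1. Intervals that treat UMIs as independent are therefore too narrow for Hspa1a and Hspa1b.

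**Figure D2:**
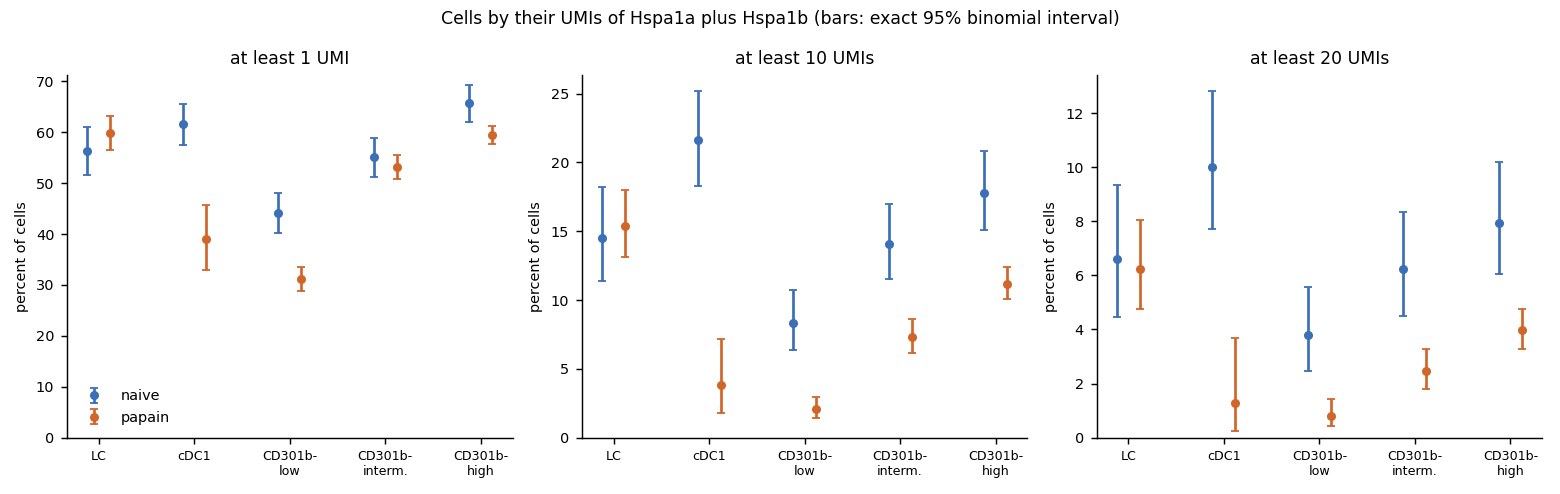
Percent of cells (y axes, from 0) of each antibody class with at least 1, 10 or 20 UMIs of Hspa1a plus Hspa1b, with exact binomial intervals, in the naive and papain libraries. The share with at least 10 UMIs is lower in papain cells in cDC1s (21.6% and 3.83%) and in the 3 cDC2 classes, and near equal in LCs (14.5% and 15.4%).

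Over all classes, 15.2% of naive cells (14.0 to 16.5, Clopper-Pearson) and 8.69% of papain cells (8.06 to 9.36) held at least 10 UMIs of the pair, and 6.87% and 3.15% held at least 20. In cDC1s 125 of 578 naive cells but 9 of 235 papain cells reached 10 UMIs. The papain cDC1s were shallower, with a median of 12399 UMIs against 15806 in naive cDC1s. After thinning every cell to 8392 UMIs, 44.8% of naive and 24.0% of papain cDC1s had an Hspa1a UMI. For Hspa1b these shares were 40.1% and 22.0%, and 47 naive and 28 papain cDC1s under that depth were left out. In LCs, whose CPM was lower in papain, the shares did not follow: 56.4% of naive and 59.9% of papain LCs had a UMI of the pair. The papain LCs were deeper, and after thinning every cell to 8392 UMIs the share with an Hspa1a UMI was 40.6% in naive and 37.0% in papain LCs, while that with an Hspa1b UMI was 27.4% in naive and 32.2% in papain LCs. Thinning left out 127 naive and 110 papain LCs that were shallower. Over all classes the thinned share with an Hspa1a UMI was 39.4% in naive and 31.2% in papain DCs, and that with an Hspa1b UMI was 31.9% and 25.7%.

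Hspa8, the constitutive cytosolic HSP70, was at 256 CPM (251 to 261) in naive and 196 CPM (193 to 198) in papain DCs, 1.31-fold lower (1.28 to 1.34). In naive mice it went from 191 CPM in LCs through 227 CPM in cDC1s, 235 CPM in CD301b-low and 278 CPM in CD301b-intermediate to 307 CPM in CD301b-high cDC2s. In papain mice the 5 classes lay between 169 CPM (LCs) and 207 CPM (CD301b-high). The highest class exceeded the lowest 1.61-fold in naive (1.5 to 1.72) and 1.22-fold in papain mice (1.18 to 1.28), and of the 4 steps between papain classes only that from CD301b-low cDC2s to LCs went beyond counting error. Naive CD301b-low cDC2s and cDC1s did not differ beyond counting error.

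Hsph1, the nucleotide exchange factor of HSP70, was the least counted member. It was at 24.4 CPM (23.0 to 25.9) in naive and 20.5 CPM (19.7 to 21.3) in papain DCs, and 23.0% and 22.5% of cells had a UMI. No neighbouring pair of naive classes, which lay between 20.8 and 29.4 CPM, differed beyond counting error. In papain mice LCs had 30.1 CPM and cDC1s 10.4 CPM (7.12 to 14.7, from 32 UMIs), a gap of 2.89-fold (2.03 to 4.27). As a point value this was the widest gap between classes of any member. Its interval includes the papain gaps of Hspa1a (2.4-fold) and Hspa1b (2.35-fold).

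The J-domain genes differed in how far they were from the naive level. Dnaja1 was at 132 CPM (128 to 135) in naive and 97.6 CPM (95.8 to 99.4) in papain DCs, 1.35-fold lower (1.31 to 1.39). Dnajb1, a J-domain partner of inducible HSP70, was at 51.4 CPM (49.4 to 53.5) in naive and 45.0 CPM (43.8 to 46.2) in papain DCs, 1.14-fold lower (1.09 to 1.20). Over all cells LCs were the highest class of both genes in both libraries, with Dnajb1 at 71.3 CPM in naive and 52.5 CPM in papain LCs. In cells of 10000 to 20000 UMIs, Dnaja1 in papain LCs (98.5 CPM) was level with CD301b-intermediate cDC2s (99.1 CPM), and its naive range over classes was under 1.5-fold.

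Dnaja1 was lower in papain by 1.68-fold in LCs (178 and 106 CPM), 1.64-fold in cDC1s (132 and 80.7 CPM), 1.58-fold in CD301b-low (144 and 91.4 CPM), 1.24-fold in CD301b-intermediate (124 and 99.8 CPM) and 1.11-fold in CD301b-high cDC2s (107 and 96.5 CPM). The value in cDC1s moved with T cell transcripts: the 4 T cell markers Cd3e, Cd3d, Trac and Trbc2, all detected, summed to 146 CPM in naive and 20.5 CPM in papain cDC1s, and to 9.545 to 43.7 CPM in the other naive classes. The 4 B cell markers summed to 35.2 and 31.6 CPM in cDC1s. Without the cells that held a UMI of Cd3e, Trac, Cd79a or Cd79b, naive cDC1s had 89.5 CPM and papain cDC1s 82.8 CPM of Dnaja1, a ratio of 1.08 (0.931 to 1.26), so the call in cDC1s ended there. The same step left 1.63-fold in LCs and 1.54-fold in CD301b-low cDC2s. In cells of 10000 to 20000 UMIs Dnaja1 passed the rule in no class, with 1.5-fold in LCs, 1.49-fold in cDC1s and 1.39-fold in CD301b-low cDC2s. The part of T and B cell RNA or of depth in these values was not tested.

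The 2 cytosolic HSP90 genes went opposite ways. Hsp90aa1, the inducible one, was at 222 CPM (218 to 227) in naive and 172 CPM (170 to 174) in papain DCs, 1.29-fold lower (1.26 to 1.32). It was highest in LCs (289 CPM naive, 209 CPM papain) and lowest in cDC1s (171 CPM and 140.0 CPM) of both libraries. In cells of 10000 to 20000 UMIs the naive LCs (242 CPM) were level with CD301b-intermediate cDC2s (242 CPM), cDC1s stayed lowest in both libraries (170.2 CPM and 141 CPM), and the naive range over classes no longer passed 1.5-fold. Hsp90ab1, the constitutive one, was at 1411 CPM (1400.0 to 1421) in naive and 1788 CPM (1780.0 to 1795) in papain DCs, 1.27-fold higher (1.26 to 1.28), and 99.6% and 99.8% of cells had a UMI. It was above the naive level in all 5 classes, by 1.14-fold in CD301b-high cDC2s to 1.44-fold in LCs, and in none of them did it pass the 1.5-fold rule. It spanned 1255 to 1566 CPM over naive and 1603 to 1902 CPM over papain classes.

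Hspa5 was at 307 CPM (302 to 313) in naive and 224 CPM (222 to 227) in papain DCs, 1.37-fold lower (1.34 to 1.40). In naive mice CD301b-low cDC2s (366 CPM) and LCs (346 CPM) were highest and cDC1s lowest (209 CPM). Those 2 did not differ beyond counting error. In papain mice CD301b-high cDC2s were highest (238 CPM), then LCs (224 CPM), CD301b-intermediate (222 CPM) and CD301b-low cDC2s (202 CPM), and cDC1s were again lowest (165 CPM), with no difference beyond counting error between LCs and CD301b-intermediate cDC2s. CD301b-low stood above CD301b-high cDC2s in naive mice and below them in papain mice. Outside mRNA cluster 1.5, the naive cluster with the most Hspa5, the 3 naive classes had 281.5, 276 and 282 CPM from low to high. That cluster was left out after the values were seen and on the naive side only, so lower naive values were given by the choice. The naive level exceeded the papain level 1.81-fold in CD301b-low cDC2s (1.73 to 1.90; 1.39-fold outside cluster 1.5) and 1.3-fold in CD301b-high cDC2s (1.25 to 1.35). In cDC1s the ratio was 1.26-fold over all cells and 1.01 (0.907 to 1.13) without the cells that held a T or B cell transcript.

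Hspe1 was the member closest to its naive level, at 228 CPM (224 to 233) in naive and 216 CPM (213 to 219) in papain DCs, 1.06-fold lower (1.03 to 1.08). The classes went different ways. LCs had 204 CPM in naive and 243 CPM in papain mice, 1.19-fold higher (1.11 to 1.27), while cDC1s had 208 and 137 CPM, 1.52-fold lower (1.36 to 1.69) and 1.47-fold (1.31 to 1.64), no longer called, without the cells that held a T or B cell transcript. The cDC2 classes were between 1.06- and 1.18-fold lower. Its partner Hspd1, which shares the start region shown above, was at 51.2 and 69.5 CPM in LCs and at 45.2 and 44.9 CPM in cDC1s.

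**Figure D3:**
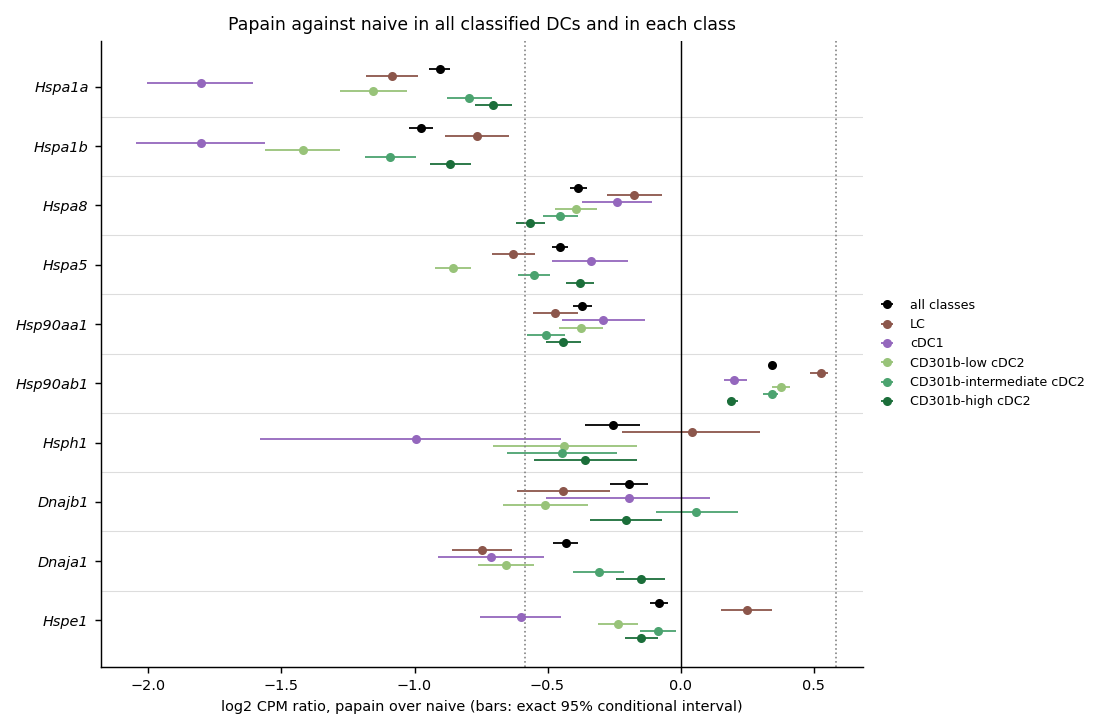
Log2 ratio of CPM, papain over naive (x axis), of each chaperone over all classified DCs and in each antibody class, with exact conditional intervals. Dotted lines mark 1.5-fold, and Hspa1a and Hspa1b lie left of the lower line in every class.

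Counted by class, members lower by 1.5-fold were 4 in LCs (Hspa1a, Hspa1b, Hspa5 and Dnaja1), 5 in cDC1s (Hspa1a, Hspa1b, Hsph1, Dnaja1 and Hspe1), 4 in CD301b-low cDC2s (Hspa1a, Hspa1b, Hspa5 and Dnaja1) and 2 each in CD301b-intermediate and CD301b-high cDC2s (Hspa1a and Hspa1b). The share of all tested genes that was lower was 8.01% in LCs, 8.04% in cDC1s, 11.2% in CD301b-low, 9.3% in CD301b-intermediate and 8.82% in CD301b-high cDC2s. No member was higher in any class, where 17.8% of tested genes were higher in LCs, 11.0% in cDC1s, 15.7% in CD301b-low, 14.2% in CD301b-intermediate and 12.6% in CD301b-high cDC2s. Hsph1, 1 of the 5 in cDC1s, was under 50 CPM there. Without the cells that held a T or B cell transcript, Dnaja1 and Hspe1 (1.47-fold) were no longer called in cDC1s, where 3 members remained. In cells of 10000 to 20000 UMIs Hspa5 (1.48-fold) was no longer called in LCs and Dnaja1 was called in none, while Hspa1a and Hspa1b kept their calls in every class under both limits. Leaving out the naive cells of mRNA cluster 1.5, described below, ended the call of Hspa5 in CD301b-low cDC2s (1.39-fold) and that of Hspa1a in CD301b-intermediate cDC2s (148 and 98.9 CPM, 1.49-fold with 1 CPM added). These limits were applied by class after the values were seen.

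Between classes of one library, 7 members in naive and 4 in papain mice passed 1.5-fold from the lowest to the highest class. In all, 54.3% of tested genes did so in naive and 40.8% in papain mice, so these counts are near what other genes show. The 4 in papain mice were Hspa1a, Hspa1b, Hsph1 and Hspe1.

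Chaperone levels were then followed over the authors' mRNA clusters, which hold cDC2s alone: 7 clusters in naive (1.1 to 1.7) and 9 in papain mice (2.1 to 2.9). From the lowest to the highest cluster 7 members in naive and 6 in papain mice passed 2-fold, against 70.2% and 55.9% of tested genes. In cells of 10000 to 20000 UMIs, where 5 naive clusters kept 50 cells, the naive count was 2 (Hspa5 and Hspe1) and the papain count 6, against 42.1% and 57.5% of tested genes. The papain 6 then held Hsp90ab1 (2.02-fold) in place of Hspe1 (1.98-fold). Clusters were built from mRNA, so a member may have helped to shape them, and these values are descriptions.

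**Figure D4:**
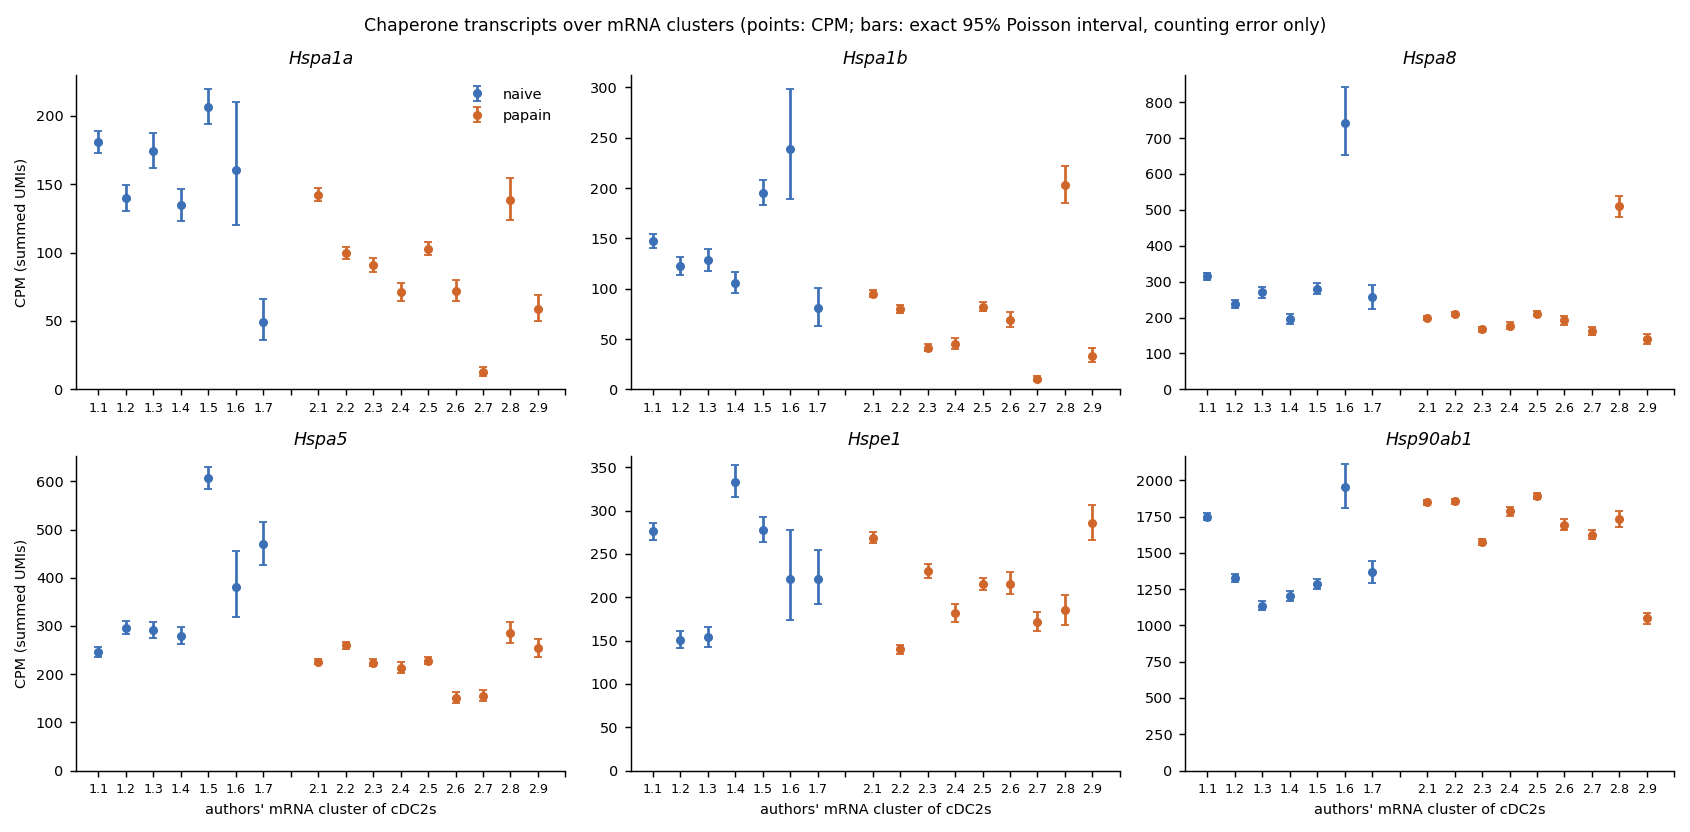
CPM (y axes, from 0) of 6 chaperones in the mRNA clusters of cDC2s (x axes) of the naive and papain libraries, with exact 95% Poisson intervals. Clusters 1.6 and 2.8 stand out for Hspa8, cluster 1.5 for Hspa5 and cluster 2.7 for its low Hspa1a and Hspa1b.

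Cluster 2.7 (375 cells) nearly lacked the inducible HSP70 pair. Hspa1a was at 12.8 CPM (10.0 to 16.2) and Hspa1b at 10.4 CPM (7.91 to 13.5), while the other papain clusters lay between 58.8 and 142 CPM for Hspa1a and between 33.3 and 203 CPM for Hspa1b. In this cluster 11.5% of cells had an Hspa1a UMI and 2 of 375 cells (0.533%, 0.0647 to 1.91) had 10 or more UMIs of the pair. Its median depth, 14281 UMIs, was close to that of the library, and within cells of 10000 to 20000 UMIs Hspa1a stayed at 12.5 CPM. The share of its cells with an Hspa1a UMI was below that in each of the 5 papain classes (22.8 to 48.9%). Papain cells without a class had a share of 9.31%. The part of free RNA from broken cells in these shares was not tested. Most other members were low in cluster 2.7 too. It was the lowest papain cluster for Hsp90aa1 (109.6 CPM), Dnaja1 (73.9 CPM) and Hsph1 (10.8 CPM), not apart from cluster 2.3 beyond counting error for Hsp90aa1 and Hsph1. It was the second lowest for Hspa8 (162 CPM), Hspa5 (155 CPM), Hspe1 (172 CPM) and Dnajb1 (35.75 CPM). These second places were not firm: beyond counting error it was not apart from 2.3 for Hspa8 and Dnajb1. The same held against 2.4 for Hspe1 and against 2.6 for Hspa5 and Dnajb1. Hsp90ab1 was at 1626 CPM, within the range of the other papain clusters. Egr1, an immediate early gene, was at 12.1 CPM in this cluster, and Fos was at 371 CPM.

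Clusters 1.6 (55 cells) and 2.8 (316 cells) held the most Hspa8, at 742 CPM in 1.6 and 510.0 CPM in 2.8, where the other clusters lay between 195 and 314 CPM in naive and between 141 and 211 CPM in papain mice. Hspa1b exceeded Hspa1a in both, with 0.671 Hspa1a UMIs per Hspa1b UMI in 1.6 (0.465 to 0.962) and 0.681 in 2.8 (0.589 to 0.786). Cluster 1.7 had 0.616 (0.415 to 0.906). Cluster 1.6 held only 53 Hspa1a and 79 Hspa1b UMIs, with 22 and 29 of them in single cells. Such intervals are too narrow for this pair, as stated above. Hsp90aa1 (324 and 281 CPM) and Hsph1 (48.5 and 32.65 CPM) were also at their highest in clusters 1.6 and 2.8. Neither gene in cluster 1.6 was apart from the next cluster beyond counting error. These were the shallowest clusters of each library, with medians of 5929 and 7249 UMIs, and the part of depth in their levels was not tested. Within cells of 10000 to 20000 UMIs, cluster 2.8 still had 499.7 CPM of Hspa8, and too few cells of 1.6 remained.

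Cluster 1.5 (246 cells) had the most Hspa5, 606 CPM, against 246 to 469 CPM in the other naive clusters, and the most Hspa1a, 206 CPM. It also had the most Fos (1642 CPM), Jun (401.5 CPM), Egr1 (511 CPM) and Atf3 (757 CPM) of the naive clusters, and 19.9% of its cells held a T or B cell transcript, against 4.86 to 9.16% in clusters 1.1 to 1.4 and 1.6. The part of those transcripts in its levels was not tested. The cells of cluster 1.5 were 58.1% CD301b-low, and within that class Hspa5 was at 589 CPM in the 143 cells of the cluster and at 281 CPM in the other 515 cells. Without them the ratio of naive to papain in CD301b-low cDC2s was 1.39-fold (1.32 to 1.47), no longer past 1.5-fold, and the naive cDC2 classes then lay within 276 to 282 CPM of each other. This comparison was added after the values were seen. Cluster 1.5 had the most Hspa5 and was left out on the naive side only, so a lower naive value outside it was given by the choice. The smallest naive cluster, 1.7 (50 cells), had the most Dnaja1 (256 CPM), and 72.0% of its cells held a T or B cell transcript.

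Hspe1 ordered the clusters in another way. It was at 333 CPM in cluster 1.4, 278 CPM in 1.5 and 276 CPM in 1.1, but at 150.5 CPM in 1.2 and 154 CPM in 1.3, with 1.6 and 1.7 between them at 221 CPM. In papain mice it was at 286 CPM in 2.9 and 269 CPM in 2.1 and at 139.8 CPM in 2.2, and the other 6 clusters ran from 172 to 230.0 CPM between them. Clusters 2.9 and 2.1 were not apart beyond counting error for Hspe1. Hsp90ab1 was at 1048 CPM in cluster 2.9, against 1574 CPM or more in the other papain clusters.

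Likeness of pattern was measured as the lower of Pearson's r over the 7 naive and over the 9 papain clusters, for 2274 genes of at least 50 CPM in both libraries. Points share libraries and differ in depth, and no p is given. Hspa1a and Hspa1b had r of 0.75 and 0.91 with each other. The genes most like Hspa1a outside the set were Cbfa2t3 (0.83 and 0.78), Snx10 (0.74 and 0.81), Ctss (0.72 and 0.72), Tbc1d9 (0.89 and 0.71) and Rragc (0.96 and 0.67). Hspa1a was lowest in clusters 1.7 (49.6 CPM) and 2.7 (12.8 CPM). Cbfa2t3, Snx10, Ctss and Tbc1d9 were lowest in both as well, and Rragc in 1.7 but not in 2.7. Cluster 1.7 held 50 cells, and 72.0% of them had a T or B cell transcript. These r can lean on a single cluster per library, and r without it was not computed. The genes most like Hspa5 were Pcna (0.86 and 0.93), Fosl2 (0.91 and 0.85), Picalm (0.85 and 0.84), Ccnl1 (0.84 and 0.98) and Zc3hav1 (0.81 and 0.81). For Hspa8 and Hspe1, anchors added after their values were seen, the nearest genes were Actg1 (0.97 and 0.97), a cytoplasmic actin, and Phb2 (0.89 and 0.90), a mitochondrial prohibitin. Actg1 was at 4735 CPM in cluster 1.6 and 2563 CPM in 2.8. Hspa5 had r of -0.21 with Hspa1a over naive and 0.66 over papain clusters.

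Among single cells of 10000 to 20000 UMIs, Hspa1a and Hspa1b (log2 of CPM + 1) had r between 0.40 and 0.66 in the 10 combinations of class and library, with a median of 0.51. Against the 8 immediate early genes, the sum of the pair had r between -0.24 and 0.29, with no gene's median above 0.12. Cells of one library share its handling, and weak correlations in such sparse counts are not read further.

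Over all classes, the other chaperones on a list of 54 genes lay mostly above their naive level. Of the 52 listed in the files, 25 were tested over all classes: none passed 1.5-fold in either direction, 22 were above 0, and the median log2 ratio was 0.29, where the 10 members had -0.38. Of all 2731 tested genes 61.2% were above 0, and their median was 0.12. The 2 highest ratios were those of Hsbp1, which binds heat shock factor 1 (60.2 and 87.2 CPM, log2 0.53), and Grpel1, a mitochondrial nucleotide exchange factor (44.8 and 63.0 CPM, 0.48). The lowest were those of the J-domain genes Dnaja2 (100.1 and 90.1 CPM, -0.15) and Dnajc7 (64.9 and 59.8 CPM, -0.12). Hsf1 itself was at 13.3 and 10.2 CPM, and Hsf2 at 58.4 and 74.7 CPM. In LCs 8 of 27 tested genes of the list were higher and none lower, where 17.8% of all tested genes were higher. There 26 were above 0 and 1 below, and the median was 0.4. In cDC1s, where the HSP70 pair differed most, none of 23 was higher and 1 was lower (Dnaja2), 10 were above 0 and 13 below, and the median was -0.02, where 11.0% of all tested genes were higher and 8.04% lower. In the cDC2 classes 2 of 25 were higher in CD301b-low, 2 of 24 in CD301b-intermediate and 2 of 25 in CD301b-high cells, and none was lower, where 15.7%, 14.2% and 12.6% of all tested genes were higher. Above 0 were 21, 22 and 23 of them in the same order, with medians of 0.21, 0.31 and 0.31. Stip1, which links HSP70 to HSP90, was at 26.5 and 63.5 CPM in LCs, and it was picked after the values were seen.

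**Figure D5:**
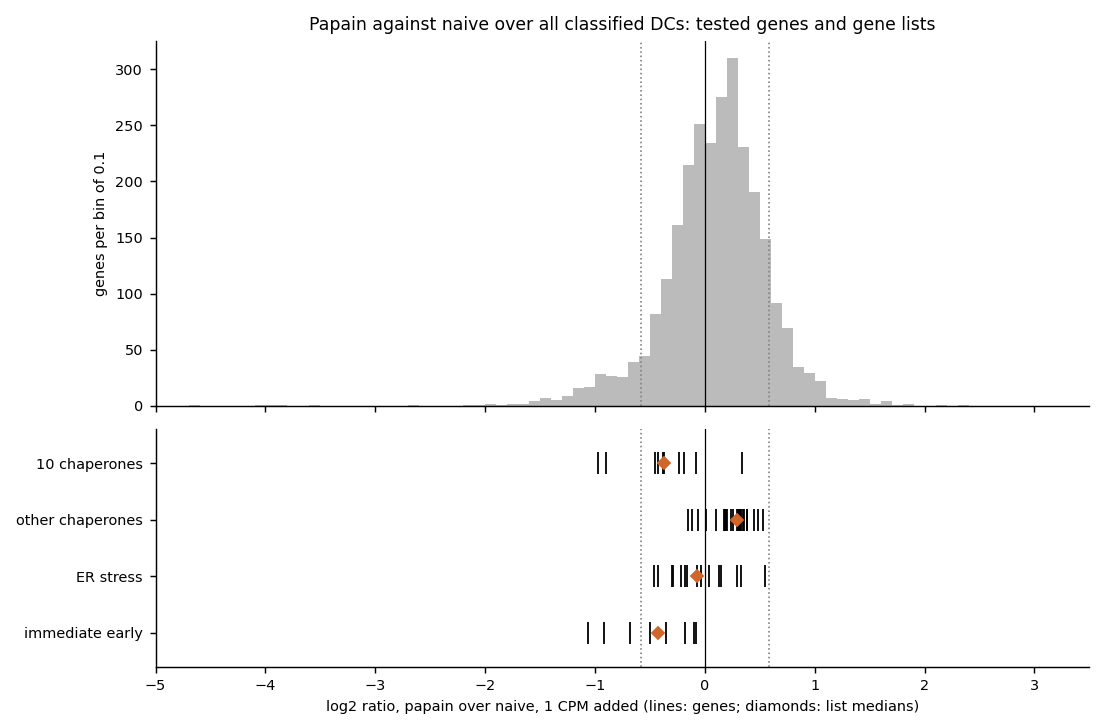
Histogram of log2 ratios (papain over naive, 1 CPM added; x axis) of the 2731 tested genes over all classified DCs, above the ratios of the 10 chaperones and of the tested genes of 3 lists, with diamonds at the medians. The 10 chaperones have their median at -0.38 and the other chaperones at 0.29.

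Of the 27 genes of the endoplasmic reticulum stress list, 26 were listed and 15 tested: none passed 1.5-fold over all classes, 6 were above 0 and 9 below, and the median was -0.07. Sel1l and Edem1, which serve the disposal of misfolded proteins, had the highest ratios (99.6 and 145.9 CPM, log2 0.55; 66.2 and 83.2 CPM, 0.33). The transcription factor gene Atf4 (222 and 161 CPM, -0.46) and Herpud1 (301 and 223 CPM, -0.43) had the lowest. In CD301b-low cDC2s 3 of 15 were lower, Hsp90b1, Dnajc3 and Pdia6, where 11.2% of all tested genes were lower, with Hsp90b1, the HSP90 of the same compartment, at 183 CPM in naive and 118 CPM in papain mice. In LCs 2 of 14 were higher and 1 lower (17.8% and 8.01% of all tested genes), and in cDC1s 2 of 12 were higher, Herpud1 and Edem1, and none lower (11.0% and 8.04% of all). In CD301b-intermediate cDC2s 1 of 15 and in CD301b-high cDC2s 2 of 14 were lower and none higher, where 9.3% and 8.82% of all tested genes were lower.

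Immediate early genes, which are switched on fast by many stimuli including the handling of cells, lay in the same direction as 9 of the 10 chaperones. All 8 were lower in papain DCs, with a median log2 ratio of -0.42, and 3 passed 1.5-fold: Fos (797 and 381 CPM), Atf3 (318 and 168 CPM) and Zfp36 (1407 and 877 CPM), where 7.18% of all tested genes were lower. Jun was at 230.5 and 163 CPM, Junb at 1997 and 1567 CPM, Egr1 at 166 and 147 CPM, Ier2 at 169.8 and 160.2 CPM and Dusp1 at 935 and 874 CPM. In CD301b-low cDC2s 5 of 8 passed (11.2% of all tested genes were lower), with Egr1 at 199.5 and 74.7 CPM. In cDC1s Fos alone of the 7 tested did (349 and 229.5 CPM), where 8.04% of all tested genes were lower. In LCs 3 of the 8 passed and 3 were above their naive level, where 8.01% of all tested genes were lower. Their part in the chaperone levels was not tested.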

How the data were processed

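Single-cell mRNA and antibody tags were sequenced from 1 naive and 1 papain library (10x 3' kit). The submitters' processing notes name Cell Ranger 3.0.1, Partek and mm10. The deposited gene values are log2(CPM + 1) per cell, made by the authors, beside their antibody class, mRNA cluster and the deposited count of expressed genes. UMIs were recovered per cell from the smallest step, and 100.0% of values up to 50 UMIs were whole within 0.02. UMIs were summed per group of cells, with exact 95% intervals (Poisson for CPM, conditional binomial for ratios, Clopper-Pearson for shares). No test across conditions was made. Python 3.11.15, numpy 2.4.6 and scipy 1.17.1 were used, and the ratio step was tested on simulated data. Genes of at least 50 CPM in the higher group counted as tested, and clusters needed 50 cells. No doublet caller was run. The members, the lists and the genes named were chosen with earlier results of these data known: all 10 members, the 2 highest and 2 lowest ratios of the other-chaperone and endoplasmic reticulum lists, 8 immediate early genes, Hsf1, Hsf2 and the 5 genes most like Hspa1a and Hspa5. Antibody tag values were not used, and S100a8 and S100a9, the neutrophil markers, were not analysed here. Alternatives were other pseudocounts, scalings, cell filters and depth windows.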

Additional observations from a re-analysis of the deposited data

Results flagged for a closer look

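Hspe1 differed in direction between classes under the same contrast: its papain level was 1.19 times the naive level in LCs and 0.66 times in cDC1s. The difference between the classes was not tested, since each has 1 library per condition. In cells of 10000 to 20000 UMIs the naive level was 0.721 of the papain level in LCs and 1.56-fold above it in cDC1s. Without cells that held a T or B cell transcript these ratios were 0.831 and 1.47.

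Cells to which the authors gave no antibody class were outside the comparisons. In the papain library 290 such cells had more of 4 chaperones than any class of that library, beyond counting error: Hspa5 was at 310.0 CPM, Dnajb1 at 71.29 CPM, Dnaja1 at 211.3 CPM and Hspe1 at 297.1 CPM. The HSP70 pair was low in them, at 66.8 CPM for Hspa1a plus Hspa1b. Of these cells 86.2% held a T or B cell transcript, and their part in the levels was not tested.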

How the results depend on the processing

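No paired analysis was possible because each condition has 1 library. The 8 counts of genes past a threshold gave 72 values under the alternatives, and 71 stayed within 1.5 times. The exception was the number of members past 2-fold between naive mRNA clusters, which was 7 over all cells and 2 (Hspa5 and Hspe1) in cells of 10000 to 20000 UMIs, where clusters 1.6 and 1.7 no longer held 50 cells. Over all classes no log2 ratio between libraries changed sign. Of the ratios by class under the 2 limits on cells, that of Dnajb1 in cDC1s did, from 1.14-fold higher in naive cells to 0.971 in cells of 10000 to 20000 UMIs (0.744 to 1.28). Hspa1a ranged from -1.09 to -0.85 and Hspa1b from -1.12 to -0.89 over the alternatives, Hsp90ab1 from 0.27 to 0.37 and Hspe1 from -0.16 to -0.04. Hspa5 was at -0.45 over all cells and at -0.28 without naive mRNA cluster 1.5, an alternative added after seeing the data, as was equal weight of the 5 classes, which gave the lowest ratio of Hspa1a. Of 100 values of log2 ratios between libraries 35 left the counting interval, as did 38 of 40 shares of cells with a UMI when thinned or when 2 UMIs were asked for. With 1 library per condition, differences between mice, nodes or preparations cannot be separated from immunization. For Hsph1, at 20.8 to 29.4 CPM, no neighbouring naive classes were apart beyond counting error. Its highest naive class, LCs, exceeded its lowest, cDC1s, 1.41-fold (1.14 to 1.75).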
